A study of Mus musculus with 6 samples.

Results

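Cathepsins are proteases of the lysosome, and cystatin F is a secreted and lysosomal inhibitor of several of them. The rows described here are the 10 genes Ctsa, Ctsb, Ctsc, Ctsd, Ctsh, Ctsl, Ctss, Ctsw, Ctsz and Cst7, found by their symbols among the 49492 rows of a table of read counts. They were chosen by the values of 1 of them, Ctss, which was higher in each of the KO libraries, so the Ctss difference between genotypes is given as values without a test. All 10 passed the filter on low counts, and the other 9 entered by family, not by their values.

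The RNA came from CD8 T cells of the spleen, obtained as naive cells and then grown for 24 hours on bound anti-CD3 (1 µg/ml), with soluble anti-CD28 at the same concentration. The mice were 6 to 8 weeks old and on a C57/BL6 background. The animals were wild type OT-I mice for the WT libraries (replicates 1, 2 and 3) and NIK-CD4Cre-OT-I mice for the KO libraries (replicates 4, 5 and 6), so both groups carry the transgenic OT-I receptor for an ovalbumin peptide. NIK is the kinase of the noncanonical NF-kB pathway encoded by Map3k14. Cre under Cd4 control acts in T cells from the thymus onward, not in CD8 cells alone. The labels do not state which exons of Map3k14 are removed, or whether the WT mice carry Cre or a conditional allele. Nor do they state whether each library came from a separate mouse. By the sex-linked counts given below each group holds both sexes, so neither group came from a single mouse. A p-value here covers only the spread among libraries, part of which may be technical.

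Most cathepsins are papain-like cysteine proteases, made as inactive precursors that mature in acidic compartments. In CD8 T cells they serve the cytotoxic granule, a modified lysosome, where cathepsin C removes the dipeptide that keeps granzymes inactive, and cystatin F can restrain cathepsin C. Cathepsin S is best known from antigen-presenting cells, where it cuts the invariant chain of MHC class II, and its gene can be induced by interferon. Genes of lysosomal enzymes can be driven by TFEB and related factors through CACGTG motifs of the CLEAR type.

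Total counts ran from 41311346 to 47851445 per library, and a count of 3 corresponds to 0.0627 to 0.0722 CPM (the normalised read count scaled to library size), for counting error only. Map3k14 had 53.6, 65.5 and 65.3 CPM in WT replicates 1 to 3, against 50.7, 64.5 and 54.7 CPM in KO replicates 4 to 6. These ranges overlap, so the count over the whole gene does not set the genotypes apart, and directions below are between libraries as they are labelled. Of the CD8 T cell markers Cd8a was at 488.3 to 593.0 CPM, and Cd4 was at 0.367 to 0.920 CPM. EdgeR called 0 of the 9 CD8 T cell markers, with the receptor gene Trac lower (log2 fold -0.20, adjusted p = 0.60) and Cd3e higher (log2 fold 0.20, adjusted p = 0.66) only at an unadjusted p under 0.05. By Xist and Y-linked counts, WT replicates 1 and 3 and KO replicate 6 were female and the other 3 libraries male.

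The promoters of 3 genes are printed because they carry the motif contrast within the family. An interferon response element core was found in Ctss, and CLEAR-type motifs in Ctsd and at the downstream of the listed starts of Ctsa. Each is 300 bases long, from 250 bases before the annotated start to 50 after it, from RefSeq on GRCm38.p6, 5′ to 3′ on the gene's strand, with the motif in capitals.
Ctss, chr3:95526536-95526835, plus strand: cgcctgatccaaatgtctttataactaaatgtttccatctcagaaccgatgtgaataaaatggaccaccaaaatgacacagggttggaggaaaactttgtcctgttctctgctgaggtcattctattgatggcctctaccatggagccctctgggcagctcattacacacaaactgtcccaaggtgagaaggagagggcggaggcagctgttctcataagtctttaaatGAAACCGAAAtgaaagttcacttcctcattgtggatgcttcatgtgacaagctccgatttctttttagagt
Ctsd, chr7:142387778-142388077, minus strand: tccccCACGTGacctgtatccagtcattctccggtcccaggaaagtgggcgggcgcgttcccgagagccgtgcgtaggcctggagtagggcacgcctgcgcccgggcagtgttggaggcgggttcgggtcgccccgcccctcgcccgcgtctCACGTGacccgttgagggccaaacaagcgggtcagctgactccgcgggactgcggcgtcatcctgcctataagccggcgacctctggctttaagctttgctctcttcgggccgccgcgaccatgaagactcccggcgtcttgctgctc
Ctsa, chr2:164833523-164833822, plus strand, the downstream of its listed starts: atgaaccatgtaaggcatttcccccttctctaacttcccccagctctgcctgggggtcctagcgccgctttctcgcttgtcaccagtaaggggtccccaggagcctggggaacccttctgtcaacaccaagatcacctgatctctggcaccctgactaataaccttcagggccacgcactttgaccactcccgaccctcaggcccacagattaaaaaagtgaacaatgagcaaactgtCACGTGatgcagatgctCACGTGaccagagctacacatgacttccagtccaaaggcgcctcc

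In the Ctss promoter, the capitals mark GAAACCGAAA, a match to the interferon response element core (GAAA, any 2 bases, GAAA) that begins 21 bases before the start. In Ctsd the capitals mark CACGTG, beginning 245 and 98 bases before the start, and in Ctsa CACGTG beginning 12 bases before the start and again at base 6 after it. The promoter of the upstream listed start of Ctsa, chr2:164832622-164832921, held 0 CACGTG. RefSeq sequences were matched for 7 of the 10 genes, which gave 8 promoters. Both strands were searched and no matches overlapped. CACGTG was found for 3 of the 7 genes (Ctsa, Ctsd and Ctsl), the interferon core for 1 (Ctss), and the kappaB motif for 0. Over all 32851 promoters of this length, 7.15% held CACGTG, 3.44% the interferon core and 4.51% the kappaB motif. These shares count promoters, whereas a gene was counted above if any of its promoters matched, so the units differ. A match describes the letters only and is not a bound site.

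Ctss (chromosome 3, 95526786 to 95556403, plus strand, GRCm38) encodes cathepsin S. It stood at 49.3, 48.5 and 44.8 CPM in WT replicates 1, 2 and 3, and at 65.8, 74.2 and 82.1 CPM in KO replicates 4, 5 and 6. The WT libraries lay close together, every KO library lay above them, and KO replicate 6 was the highest. The mean was 47.6 CPM ± 2.40 (SD, n = 3) in WT and 74.0 CPM ± 8.13 (SD, n = 3) in KO, a fold of 1.56 and a log2 fold of 0.64 (SE 0.09). These values chose the gene list, so they support nothing further. Within the female libraries Ctss was at 49.3 and 44.8 CPM in WT against 82.1 CPM in KO, and within the male ones at 48.5 CPM in WT against 65.8 and 74.2 CPM in KO. Over all the other fits run, including each library left out in turn, the log2 fold of Ctss ran from 0.56 to 0.72. The order within each sex and the sign in these fits follow from the values that chose the gene. They are no further support.

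**Figure D1:**
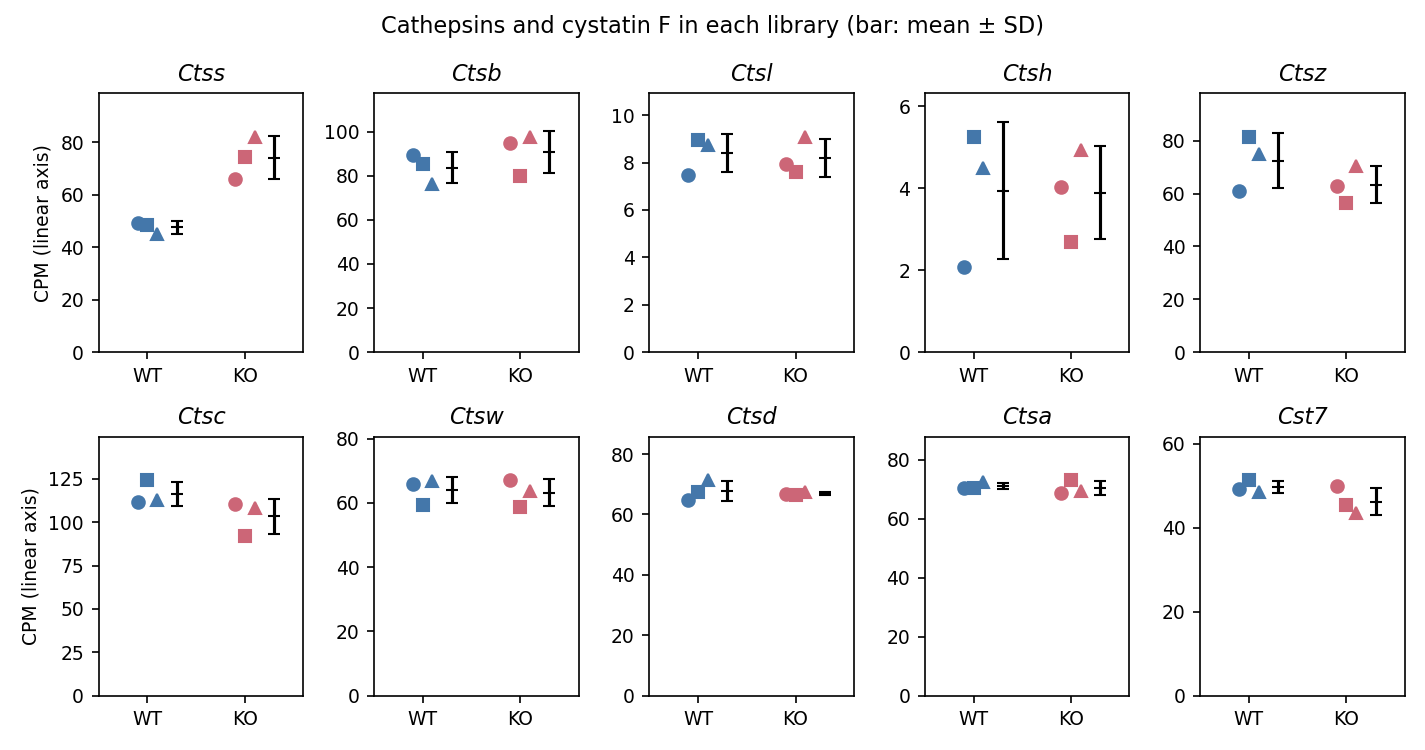
CPM of each gene by library on linear axes that start at 0, with WT in blue and KO in red. Circles, squares and triangles are replicates 1, 2 and 3 in WT and 4, 5 and 6 in KO, and black bars are the mean ± SD. Ctss is separated between the groups at 44.8 to 49.3 CPM against 65.8 to 82.1 CPM, while in the other panels the groups overlap or, for Ctsc, lie next to each other.

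The other 9 genes showed no called difference. In edgeR's quasi-likelihood test with Benjamini-Hochberg adjustment over 15186 genes, 0 of these 9 passed an adjusted p of 0.05, beside 0.00659% of all tested genes (1 gene). Of the 9, 0 had an unadjusted p under 0.05, where 7.26% of all tested genes did, and DESeq2 and limma-voom called 0 of these 9. Their log2 folds ran from -0.20 to 0.12, with 8 negative and 1 positive and a median of -0.02, beside 0.01 over all tested genes. Groups did not overlap for 2 of the 10, Ctss (KO above WT) and Ctsc (KO below WT), beside 12.8% of all tested genes, 6.68% with KO above and 6.07% with KO below. The Ctss part of these counts was fixed by the choice of genes. Without WT replicate 1 edgeR called 119 genes over the whole table and 0 of these 9.

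**Figure D2:**
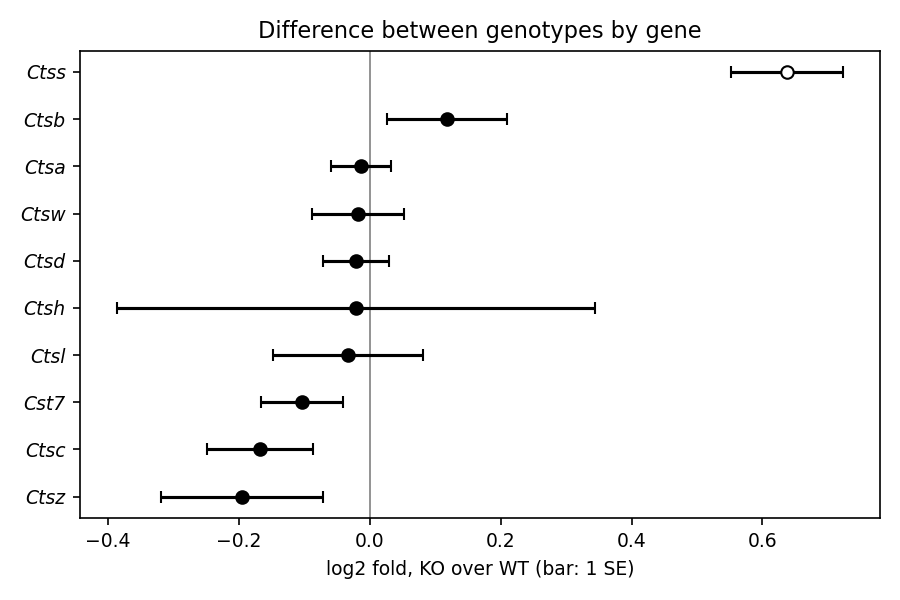
Log2 fold of each gene, KO over WT, from the fit over all genes, with bars of 1 SE on each side. Ctss is drawn open because its difference chose the list. The filled points lie between -0.20 and 0.12, and the bar of Ctsh is the widest.

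Ctsb (chromosome 14, 63122462 to 63145923, plus strand), a cysteine protease with both endopeptidase and carboxydipeptidase activity, was the only other cathepsin of the list with a positive estimate. It was at 89.6, 85.4 and 76.2 CPM in WT replicates 1 to 3, against 94.8, 80.1 and 97.8 CPM in KO replicates 4 to 6. KO replicate 5 fell among the WT libraries. The log2 fold was 0.12 (SE 0.09, edgeR adjusted p = 0.78), and the 95% interval of the fold was 0.935 to 1.26.

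Ctsl (chromosome 13, 64359337 to 64370890, minus strand), is an endopeptidase of the same papain-like family as cathepsin S. It had 7.48, 8.95 and 8.74 CPM in WT replicates 1 to 3, against 7.92, 7.59 and 9.10 CPM in KO replicates 4 to 6. The groups covered almost the same range, with a log2 fold of -0.03 (SE 0.11, edgeR adjusted p = 0.95) and a 95% interval of the fold from 0.811 to 1.18.

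Ctsh (chromosome 9, 90054152 to 90076089, plus strand), an aminopeptidase, had the lowest level per length and the widest spread of the 10. Its values were 2.07, 5.25 and 4.49 CPM in WT replicates 1 to 3, against 4.03, 2.68 and 4.93 CPM in KO replicates 4 to 6. The highest library was 2.54 times the lowest, and WT replicate 1 and KO replicate 5 were the low ones. The 95% interval of its fold, 0.542 to 1.79, is the widest of the 10 and leaves changes of that size undetected (log2 fold -0.02, SE 0.37, edgeR adjusted p = 0.99). WT replicate 1 and KO replicate 5 were also lowest for the summed class II presentation list, a match seen only after the Ctsh values were known. Their sums were 145.4 and 146.7 CPM, where the other 4 libraries had 158.0 to 267.3 CPM. The part of antigen-presenting cells in the Ctsh values was not tested.

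Ctsz (chromosome 2, 174427493 to 174439039, minus strand) encodes cathepsin X, a carboxypeptidase that removes residues from the C-terminus. It was at 60.9, 81.5 and 75.1 CPM in WT replicates 1 to 3, against 63.0, 56.5 and 70.6 CPM in KO replicates 4 to 6. WT replicate 1 lay among the KO libraries, and the Ctsz log2 fold was -0.20 (SE 0.12, edgeR adjusted p = 0.74). Seen only after its values were known, the 6 libraries ranked by Ctsz fell in the same order as by the summed cytotoxic granule list. That sum was lowest in KO replicate 5 at 1184 CPM, then WT replicate 1 at 1576 CPM, KO replicate 4 at 1632 CPM, KO replicate 6 at 1851 CPM, WT replicate 3 at 2282 CPM and WT replicate 2 at 2517 CPM. The largest part of the sum was Gzmb, granzyme B, which ranged from 508.1 CPM in KO replicate 5 to 1691 CPM in WT replicate 2.

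Ctsc (chromosome 7, 88278085 to 88310888, plus strand) encodes cathepsin C, the dipeptidyl peptidase that activates granzymes. It was at 111.7, 124.3 and 112.7 CPM in WT replicates 1 to 3, against 110.3, 92.0 and 108.0 CPM in KO replicates 4 to 6. The lowest WT and highest KO library were almost equal, although the groups did not overlap. The log2 fold was -0.17 (SE 0.08, edgeR adjusted p = 0.70, unadjusted p = 0.074), with a 95% interval of the fold from 0.781 to 1.01.

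Ctsw (chromosome 19, 5465043 to 5468507, minus strand) encodes cathepsin W, also called lymphopain, a papain-like protein largely restricted to cytotoxic lymphocytes. It had 66.0, 59.3 and 66.6 CPM in WT replicates 1 to 3, against 67.1, 58.6 and 63.8 CPM in KO replicates 4 to 6. The groups overlapped almost fully, and the 95% interval of the fold was 0.881 to 1.11 (log2 fold -0.02, SE 0.07, edgeR adjusted p = 0.96).

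Among the genes described here, the lysosomal proteases outside the cysteine class, Ctsd and Ctsa, were the steadiest. Ctsd (chromosome 7, 142375911 to 142388038, minus strand), an aspartic protease, was at 64.8, 67.6 and 71.4 CPM in WT replicates 1 to 3, against 66.9, 66.5 and 67.4 CPM in KO replicates 4 to 6. Ctsa (chromosome 2, 164832873 to 164841032, plus strand), a serine carboxypeptidase that also protects beta-galactosidase and neuraminidase 1, was at 70.6, 70.3 and 72.4 CPM in WT and 68.7, 73.2 and 69.5 CPM in KO. The KO values lay within or next to the WT values for both genes. The 95% interval of the fold was 0.908 to 1.07 for Ctsd (edgeR adjusted p = 0.93) and 0.919 to 1.07 for Ctsa (edgeR adjusted p = 0.95). The coefficient of variation over the 6 libraries was 2.40% for Ctsa and 3.22% for Ctsd, against 25.4% for Ctss and 32.5% for Ctsh.

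Cst7 (chromosome 2, 150570415 to 150578944, plus strand) encodes cystatin F, the inhibitor of the list. It was at 49.3, 51.3 and 48.5 CPM in WT replicates 1 to 3, against 49.9, 45.3 and 43.5 CPM in KO replicates 4 to 6. KO replicate 4 lay among the WT libraries and the other KO libraries lay under them. The log2 fold was -0.10 (SE 0.06, edgeR adjusted p = 0.72), and the 95% interval of the fold was 0.840 to 1.03.

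**Figure D3:**
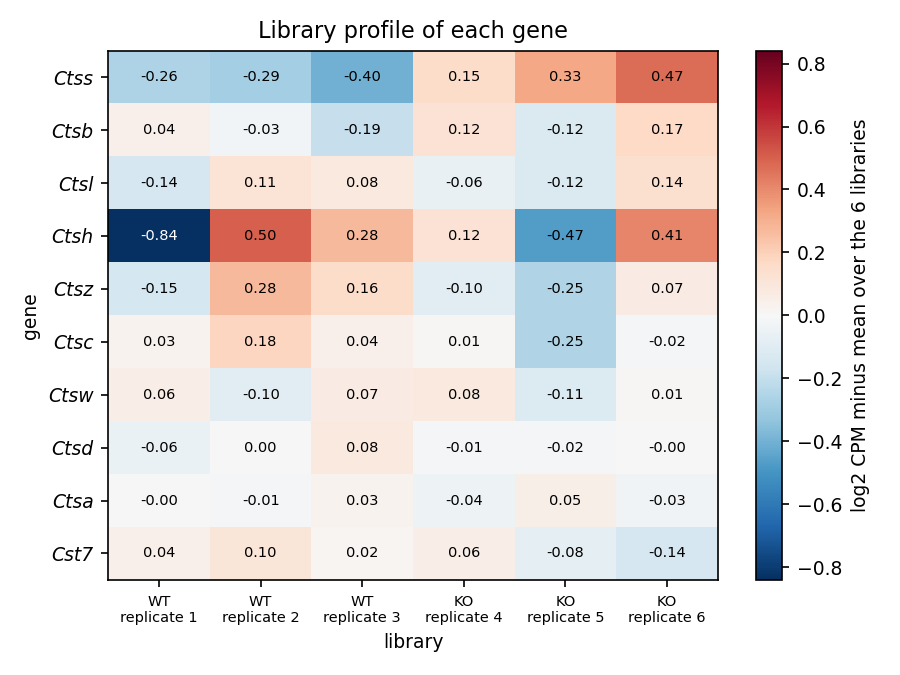
Log2 CPM of each gene minus its mean over the 6 libraries, with genes in rows, libraries in columns and the value in each cell (red above, blue below the mean). The Ctss row changes colour between WT (-0.26, -0.29 and -0.40) and KO (0.15, 0.33 and 0.47), while the Ctsh row is lowest in WT replicate 1 (-0.84) and KO replicate 5 (-0.47).

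Levels of different genes were compared per length, as FPKM over the union of exons, with the genotypes together. Cst7 had the highest mean at 48.6 FPKM ± 2.99 (SD, n = 6), followed by Ctsz at 47.1 ± 6.57, Ctss at 44.8 ± 11.4 and Ctsw at 33.7 ± 1.98 FPKM. Ctsd followed at 28.7 ± 0.925, Ctsc at 18.9 ± 1.79, Ctsa at 15.0 ± 0.360 and Ctsb at 14.4 ± 1.38 FPKM. Ctsl at 1.28 ± 0.110 and Ctsh at 0.869 ± 0.283 FPKM were far under the rest. The step from Ctsb down to Ctsl was 11.3-fold in FPKM and was seen in 6 of 6 libraries. This order joins genotypes whose Ctss levels differ. Within WT, Cst7 (50.4 FPKM) and Ctsz (50.3 FPKM) led and Ctss came after them at 35.0 ± 1.77 FPKM (SD, n = 3). Within KO, Ctss had the highest mean at 54.5 ± 5.99 FPKM (SD, n = 3), with Cst7 at 46.9 and Ctsz at 44.0 FPKM behind it.

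Neighbours in this order did not always keep it in every library. Of the 9 neighbouring pairs, 5 kept 1 order in FPKM in every library: Ctsw above Ctsd, Ctsd above Ctsc, Ctsc above Ctsa, Ctsb above Ctsl and Ctsl above Ctsh. Each of these had an exact two-sided paired permutation p of 0.031, the smallest that 6 libraries allow, and 0.056 adjusted over the 9 pairs, so 0 pairs passed 0.05. A pair could not pass on its own after this adjustment, whatever its size, and the pairs were ordered by the same FPKM. The test therefore does not decide whether neighbouring levels differ. Cst7, Ctsz and Ctss had overlapping FPKM ranges, as did Ctsa and Ctsb (exact p from 0.44 to 0.63). For Ctsz and Ctss the pooled test joins opposite orders, so its p does not describe either genotype. In WT replicates 1 to 3 Ctsz was at 42.3, 56.6 and 52.1 FPKM, above Ctss at 36.3, 35.7 and 33.0 FPKM. In KO replicates 4 to 6 Ctsz was at 43.7, 39.2 and 49.0 FPKM, under Ctss at 48.5, 54.6 and 60.4 FPKM. With the longest transcript as the length, the FPKM order of Ctsc and Ctsd turned, as did that of Ctsl and Ctsh, and 2 pairs kept 1 order in every library. Ranked within a genotype, 7 neighbouring pairs kept 1 order in all 3 WT libraries and 6 in all 3 KO libraries.

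**Figure D4:**
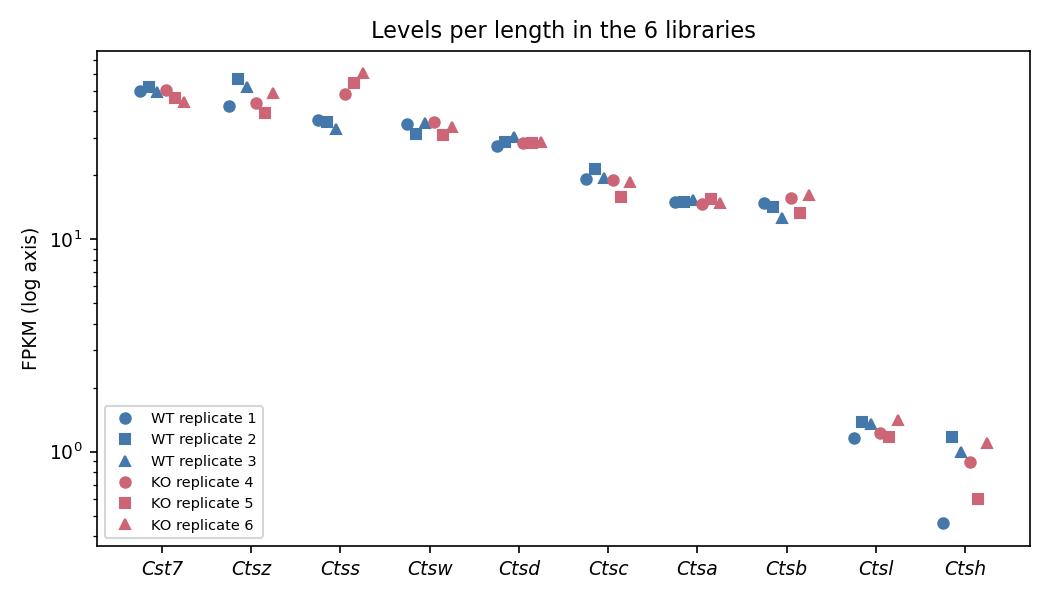
FPKM of the 10 genes in each library on a log axis, ordered by mean, with WT in blue and KO in red and symbols for replicates. 8 genes have means between 14.4 and 48.6 FPKM, and Ctsl and Ctsh lie at 1.28 and 0.869 FPKM. Ctss is at 33.0 to 36.3 FPKM in WT and 48.5 to 60.4 FPKM in KO.

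Among the 7 cysteine cathepsins, Ctss made up 24.3%, 22.1% and 21.3% of the summed FPKM in WT replicates 1 to 3, and 29.5%, 35.1% and 33.5% in KO replicates 4 to 6. In WT the largest share was that of Ctsz, at 32.3% ± 3.52 (SD, n = 3), and in KO that of Ctss, at 32.7% ± 2.89 (SD, n = 3). The Ctss share follows from the values that chose the list and carries no test. The sum of all 7 was 155.3 ± 6.31 FPKM in WT and 166.9 ± 12.5 FPKM in KO (SD, n = 3 each), and without Ctss it was 120.2 ± 6.72 and 112.4 ± 9.96 FPKM. Both sums overlapped between the genotypes.

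The 14 other cathepsin genes of the table were mostly silent. Of these, 9 had 0 counts in all 6 libraries: Ctsj, Ctsm, Ctsq, Ctsr, Cts3, Cts6, Cts7, Cts8 and Ctsll3, the placental group on chromosome 13. Only Ctso, Ctse and Ctsk passed the filter on low counts, and edgeR called 0 of these 3. An unadjusted p under 0.05 was reached by 1, where 7.26% of all tested genes reached it in either direction. Ctso, a lysosomal cysteine protease, was at 14.4, 15.3 and 15.3 CPM in WT and 15.7, 19.8 and 20.0 CPM in KO, with the groups apart by a small gap (log2 fold 0.30, SE 0.10, edgeR adjusted p = 0.63). The aspartic protease gene Ctse overlapped between groups (5.39 to 7.68 CPM in WT, 6.54 to 9.73 CPM in KO). Ctsk, the bone-resorbing cathepsin and the protein-coding neighbour before Ctss on chromosome 3, was at 0.188 to 0.361 CPM. Hormad1, a meiosis gene after Ctss, had at most 0.0481 CPM, under the level of 3 counts.

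Inhibitors were measured in the same fit. Of 10 tested genes on a list of 14 inhibitors of cathepsins and granule proteases, edgeR and DESeq2 called 0. An unadjusted p under 0.05 was reached by 2, both lower, where 3.44% of all tested genes were lower and 3.82% higher at that p. Ctla2a, which resembles a cathepsin propeptide, was at 3.43, 3.06 and 4.08 CPM in WT and 2.68, 2.45 and 2.07 CPM in KO (log2 fold -0.55, SE 0.17, edgeR adjusted p = 0.61). The KO libraries lay under the WT ones, but Ctla2b is a close copy, so the division of reads between them is uncertain. Serpinb1a, an inhibitor of neutrophil-type proteases, had a log2 fold of -0.81 (SE 0.31, edgeR adjusted p = 0.67) at 1.02 to 3.28 CPM. Serpinb9, the granzyme B inhibitor with the most reads of the list, overlapped at 169.8 to 210.0 CPM in WT and 146.9 to 188.8 CPM in KO. The secreted inhibitor gene Cst3 (33.3 to 42.3 CPM) and the cytosolic Cstb (18.1 to 21.6 CPM) overlapped too.

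Genes that mature and sort lysosomal enzymes gave 0 edgeR calls of 14 tested. Before adjustment (p under 0.05) 2 were lower, where 3.44% of all tested genes were. DESeq2 called 1 as lower, beside 0.657% of all genes that it gave an adjusted p. That gene was Scpep1, a serine carboxypeptidase related to cathepsin A. It was at 77.3, 88.0 and 64.7 CPM in WT and 58.1, 53.3 and 41.9 CPM in KO, with no overlap (log2 fold -0.58, SE 0.15, edgeR adjusted p = 0.60). Igf2r, the receptor that carries mannose 6-phosphate tagged enzymes to lysosomes, was at 206.2, 276.7 and 306.4 CPM in WT and 197.1, 189.3 and 219.9 CPM in KO. WT replicate 1 lay among the KO libraries (log2 fold -0.38, SE 0.14, edgeR adjusted p = 0.66), and edgeR called Igf2r when that library was left out. Psap, the precursor of saposins with the most reads of the list, overlapped at 230.2 to 294.8 CPM.

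Of 31 other lysosomal hydrolases, edgeR called 0, with 2 higher at an unadjusted p under 0.05, where 3.82% of all tested genes were. The median log2 fold was 0.07 (0.01 over all genes), with 22 estimates positive and 9 negative. Groups did not overlap for 5 with KO above WT and 1 with KO below, beside 6.68% and 6.07% of all tested genes. DESeq2 called 1 as higher, beside 0.657% of all genes that it gave an adjusted p. That gene was Lipa, the lysosomal acid lipase, at 23.5, 21.5 and 22.0 CPM in WT and 26.4, 28.1 and 30.3 CPM in KO (log2 fold 0.34, SE 0.07, edgeR adjusted p = 0.53). Fuca1, a fucosidase, followed at a log2 fold of 0.16 (edgeR adjusted p = 0.63). Npc2, the cholesterol carrier with the most reads of these, was at 214.3 to 252.9 CPM with overlapping groups. Without WT replicate 1 the median log2 fold of the hydrolases was 0.03, and without KO replicate 5 it was 0.04.

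Of 13 lysosomal membrane proteins, groups did not overlap for 3, each with KO above WT, beside 6.68% of all tested genes. At an unadjusted p under 0.05, 1 was higher, where 3.82% of all tested genes were. This was the chloride transporter gene Clcn7 (log2 fold 0.16, edgeR adjusted p = 0.68). Next was the calcium channel gene Mcoln1, also at 0.16 (edgeR adjusted p = 0.70). Of 16 V-ATPase subunits, the proton pump of the lysosome, 14 estimates were negative and the median log2 fold was -0.04. At an unadjusted p under 0.05, 1 was lower, Atp6v1h (log2 fold -0.15, edgeR adjusted p = 0.68), where 3.44% of all tested genes were. Atp6v1g1 followed at -0.13 (edgeR adjusted p = 0.71), and the median of these subunits was -0.07 without KO replicate 4. Of 8 tested TFEB-family factors and their regulators 0 reached an unadjusted p under 0.05, with a median log2 fold of 0.02, which turned to -0.02 without KO replicate 4. The smallest p in that list were those of the GTPase gene Rragd (log2 fold -0.21, edgeR adjusted p = 0.73) and of Mitf, a relative of TFEB (log2 fold 0.46, edgeR adjusted p = 0.74). In these 3 lists edgeR and DESeq2 called 0 genes, and the reads were led by Laptm5, Atp6v1b2 and Fnip1, each with overlapping groups.

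Granzymes are substrates of cathepsin C, and their genes and those of other granule proteins gave no calls. All 11 tested genes of the cytotoxic granule list had a log2 fold under 0, and the median was -0.18 beside 0.01 over all genes. EdgeR and DESeq2 called 0 of them, with 1 lower at an unadjusted p under 0.05, where 3.44% of all tested genes were. Gzma, granzyme A, was at 0.156 to 2.55 CPM in WT and 0.0627 to 0.457 CPM in KO (log2 fold -2.53, SE 1.07, edgeR adjusted p = 0.69). The perforin gene Prf1 was at 35.1, 53.1 and 54.1 CPM in WT and 37.4, 34.0 and 38.0 CPM in KO, so WT replicate 1 lay among the KO libraries. EdgeR called Prf1 when WT replicate 1 was left out, and the list median was then -0.28.

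Interferon-induced genes were read beside Ctss, whose promoter holds the motif core printed above. Of 15 tested, 14 estimates were positive and the median log2 fold was 0.71, and 6 were higher at an unadjusted p under 0.05, where 3.82% of all genes were. EdgeR called 0 and DESeq2 called 2, Cxcl10 and Ifit2, beside 0.657% of all genes that it gave an adjusted p. Ifit2, an antiviral protein gene, was at 22.4, 18.5 and 17.6 CPM in WT and 27.2, 28.0 and 34.3 CPM in KO. The chemokine gene Cxcl10 was at 6.66, 9.33 and 6.97 CPM in WT and 13.9, 14.8 and 25.3 CPM in KO. Like Ctss, both were highest in KO replicate 6 and did not overlap between the groups. Of the 15 list genes, 4 did not overlap, each with KO above WT, beside 6.68% of all tested genes. These were Ifit1, Ifit2, Ifit3 and Cxcl10, which in KO replicate 5 too lay above every WT library. Isg15, named after its values were seen, had its lowest value of the 6 libraries in KO replicate 5, at 9.75 CPM. Ctss was at 74.2 CPM there, above every WT library. The summed list did overlap, at 1365 to 1532 CPM in WT and 1431 to 1790 CPM in KO. Of its counts, 514.8 to 663.1 CPM came from Irf8, whose log2 fold was -0.05 (edgeR adjusted p = 0.92). The median log2 fold of the list was 0.23 without KO replicate 6 and 0.58 to 0.97 without any of the other libraries. An interferon part in the Ctss values was not tested.

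The 5 profiles nearest to that of Ctss over the 6 libraries were found by the root mean square difference of centred log2 CPM, among 9646 other genes averaging 5 CPM or more. They belonged to Mndal (0.07), a DNA sensor gene of the interferon-inducible Ifi200 cluster whose close copies make its read assignment uncertain, the nucleoside transporter gene Slc28a2 (0.09), Ifit2 (0.09), the dynein gene Dnah8 (0.10) and the chromatin remodeller gene Chd3 (0.10). Mndal was at 88.6, 85.0 and 89.7 CPM in WT and 114.9, 127.8 and 150.6 CPM in KO. Chd3 was at 261.5, 240.1 and 225.9 CPM in WT and 310.1, 339.5 and 351.1 CPM in KO. All 5 were chosen for likeness to Ctss, so their higher KO values follow from that choice and were not tested.

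Cathepsins S, H, Z and B are abundant in macrophages, dendritic cells and B cells, so markers of those cells were read in the same libraries. In bulk RNA, fewer cells of a type and less RNA per cell cannot be told apart. The 15 macrophage and monocyte markers summed to 30.0, 52.1 and 28.5 CPM in WT replicates 1 to 3, against 61.9, 24.8 and 77.2 CPM in KO replicates 4 to 6. KO replicate 5 had the lowest macrophage sum of the 6 libraries and the second highest Ctss, at 74.2 CPM. Of the 13 tested markers 12 had a positive log2 fold and the median was 1.01. EdgeR and DESeq2 called 0, and 1 was higher at an unadjusted p under 0.05, where 3.82% of all tested genes were. This was Lyz2 (0.324 to 1.16 CPM in WT, 1.000 to 4.72 CPM in KO). Without KO replicate 6 the median was 0.48, and it was 0.84 to 1.40 without any of the other libraries. The complement gene C1qb was next by p and overlapped, at 0.0432 to 0.613 CPM in WT and 0.386 to 3.61 CPM in KO. None of the 15 was at 0 in all libraries. The marker with the most reads was Mpeg1 at 15.5 to 38.3 CPM, while Csf1r, the defining receptor, stayed at 0.295 to 2.84 CPM.

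Of the 10 class II presentation genes, which include the invariant chain gene Cd74 cut by cathepsin S, edgeR and DESeq2 called 0. At an unadjusted p under 0.05, 1 was higher, where 3.82% of all tested genes were. This was the peptide-loading regulator gene H2-Oa (6.63 to 8.62 CPM in WT, 8.65 to 12.4 CPM in KO). Cd74 overlapped at 70.5 to 113.2 CPM in WT and 67.0 to 117.0 CPM in KO. The median log2 fold of these genes was 0.17, and it rested on single libraries. It was -0.01 without WT replicate 1 or without KO replicate 6, 0.06 without WT replicate 3, 0.09 without KO replicate 4, 0.48 without KO replicate 5 and 0.62 without WT replicate 2. H2-DMb1, a subunit of the peptide-loading chaperone H2-DM, overlapped at 0.906 to 1.86 CPM in WT and 0.932 to 2.53 CPM in KO.

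B cell markers had estimates of the opposite sign. The 10 markers summed to 29.2, 95.6 and 59.4 CPM in WT and 36.8, 37.5 and 49.3 CPM in KO, all 10 had negative estimates, and 0 were called or reached an unadjusted p under 0.05. Their median log2 fold was -0.57, and -0.13 without WT replicate 2 against -0.92 without WT replicate 1. Cd79b had the most reads at 7.48 to 13.6 CPM, and the smallest p were those of the B cell factor gene Ebf1 (0.579 to 2.45 CPM) and of Cd22 (3.47 to 16.8 CPM), with overlapping groups. EdgeR called Ebf1, as lower, when WT replicate 1 was left out. The 9 dendritic cell markers overlapped at 668.5 to 950.5 CPM, nearly all of it Ccr7, which T cells also express. Cd209a was at 0 in all libraries and Clec9a stayed at 0.0432 to 1.61 CPM, and the integrin gene Itgax at 1.61 to 7.19 CPM. NK and neutrophil lists summed to at most 1.23 and 0.500 CPM, with Elane and Retnlg at 0 in all libraries and S100a9, the neutrophil marker with the most reads, at 0.0445 to 0.194 CPM. Among the 5 NK markers Klre1 had the most reads and was the only 1 tested, at 0.356 to 0.971 CPM in WT and 0.136 to 0.289 CPM in KO. It was lower without overlap at an unadjusted p under 0.05 (log2 fold -1.82), where 3.44% of all tested genes were lower, and edgeR and DESeq2 called 0. The 4 CD4 T cell markers summed to 13.4 to 27.3 CPM in WT and 11.2 to 16.9 CPM in KO, led by Zbtb7b at 5.44 to 16.3 CPM. The median log2 fold of these markers was -0.54, with 3 negative estimates and 1 positive, and 0 reached an unadjusted p under 0.05. Foxp3, a gene of regulatory T cells, was at 3.44 to 11.5 CPM in WT and 1.90 to 4.81 CPM in KO. The part of these cells in the Ctss values was not tested.

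**Figure D5:**
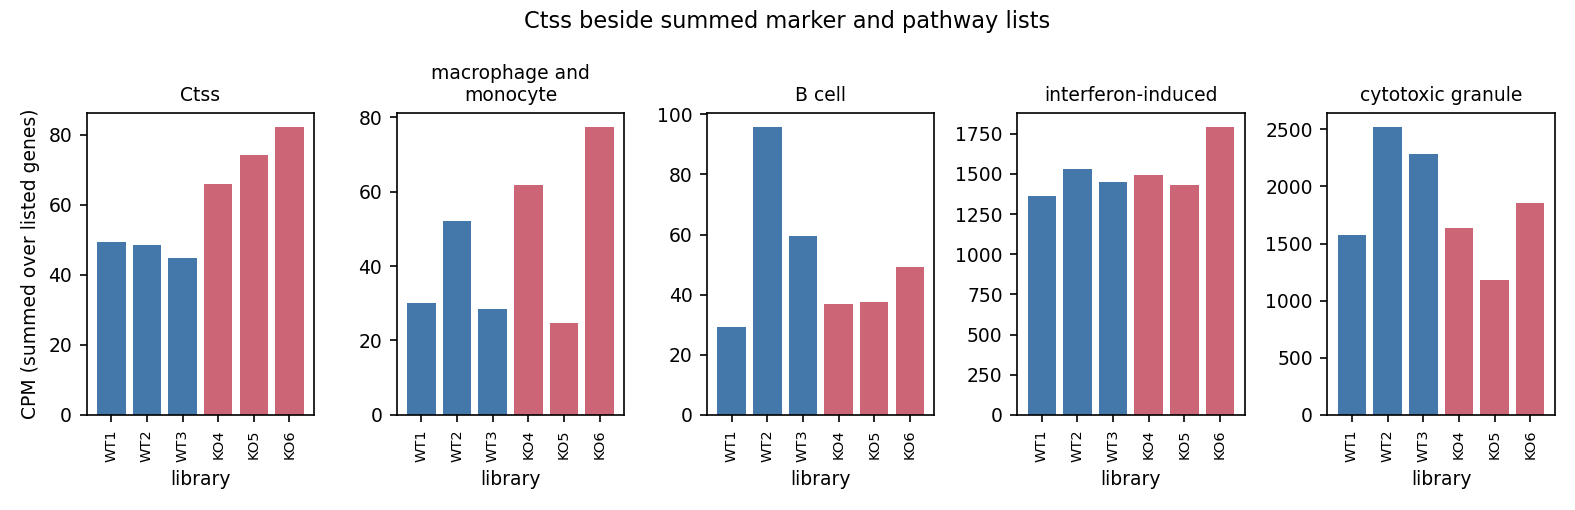
CPM of Ctss and of 4 summed gene lists in each library (linear axes from 0, WT in blue and KO in red, labels giving genotype and replicate). Ctss is higher in all 3 KO libraries, the macrophage sum is lowest in KO replicate 5 (24.8 CPM), the B cell sum is highest in WT replicate 2 (95.6 CPM), and the granule sum is lowest in KO replicate 5 (1184 CPM).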

How the data were processed

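Libraries were made from total RNA, and the deposited file is a table of unnormalised counts, with genes by symbol in rows and a library in each column. HTSeq 0.9.1, DESeq2 and mm10 are named without a role, per the submitters' processing notes. For the aligner, the annotation and the strand setting, the sources used here give nothing, so reads of overlapping genes cannot be told apart. Of the columns, 0 were left unused. Every pair of libraries differed beyond sampling noise (mean chi-square per gene at least 21.2).

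All 6 libraries entered a robust quasi-likelihood fit (edgeR 4.0.16, R 4.3.3, filterByExpr, TMM, glmQLFit, glmQLFTest). A call is a Benjamini-Hochberg adjusted p under 0.05 over 15186 genes. SEs were derived from the F statistic, and intervals are at the 95% level. CPM use TMM-scaled library sizes. Exon lengths and coordinates came by symbol from GENCODE M21 (GRCm38, the mm10 assembly). The procedure was tested on simulated counts.

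Members, lists and tests were chosen with earlier results of these data known. Genes named beyond the members were, per list, the 2 with the smallest p, the one with the most reads, and markers at 0, plus the neighbours of Ctss and the 5 profiles nearest to it. A gene called by DESeq2 or without WT replicate 1 was also named. Cd4, Csf1r, Cst3, Cstb, Ifit1, Ifit3, Isg15 and the silent cathepsins were named outside this rule, after their values were seen. Alternatives were other scaling (RLE, upper quartile), other filters (none, or 1 CPM reached in 3 libraries), other tests (limma-voom with limma 3.58.1, DESeq2 1.42.0), a term for sex, transcript length, and each library left out.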

Additional observations from a re-analysis of the deposited data

How the results depend on the processing

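Called genes over the whole table numbered 1 with edgeR, 10 without a low-count filter and 96 with DESeq2, and from 1 to 119 when a library was left out, the 119 without WT replicate 1. Among the 10 genes described, calls numbered 0, or 1 without the filter and with DESeq2, and from 0 to 1 with a library left out, the 1 without WT replicate 1. Each such call was Ctss, whose difference chose the list, so it is no test of that gene. List genes called numbered 0, then 4 with DESeq2 and from 0 to 4 with a library left out. The 4 without WT replicate 1 were Ebf1, Ifit2, Igf2r and Prf1. Ctsb, Ctsc, Ctsz and Cst7 kept their direction in all 13 other fits, as did Ctss, whose direction was fixed by the choice of genes. Of the 9 genes other than Ctss, 0 were called in any. Small estimates changed sign. With a library left out, log2 folds ran from -0.042 to 0.0040 for Ctsa, from -0.053 to 0.016 for Ctsd, from -0.33 to 0.24 for Ctsh, from -0.11 to 0.019 for Ctsl and from -0.070 to 0.032 for Ctsw. Ctsh was also at 0.035 with limma-voom, and Ctsw at 0.014 with a term for sex. Of neighbouring FPKM pairs, 5 kept 1 order in every library and 2 with the longest transcript. The cause of these changes was not tested. No paired analysis was possible because the genotypes share no replicate numbers. Ctsf, at 1 to 16 counts per library, and Ctsg, at 0 to 1, had too few reads to be tested.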
